A study of Mus musculus with 12 samples.

Results

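The genes described here are 37 transcripts that mark T cells and natural killer (NK) cells or carry out their functions. They were taken by symbol as known lymphocyte genes, with earlier results of these data known, and each of the 37 has a row among the 52636 genes counted in mouse skin. They comprise 4 CD3 chains of the T cell receptor complex, 3 co-receptor chains, 4 signalling proteins that act next to the receptor, 9 adhesion, costimulatory or inhibitory surface proteins, 4 cytokine receptor chains, 5 transcription factors and 8 effector molecules or NK cell receptors. Of these, 32 passed the filter on low counts and entered the tests. Cd8a, Cd8b1, Cd28, Cd40lg and Ifng did not pass it, with 31, 17, 59, 5 and 9 counts respectively summed over all 12 libraries.

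RNA was sequenced from the skin of BALB/c mice in 4 groups of 3 independent biological samples. The groups were control mice, control mice given rapamycin (control + RAPA), mice injected with LL37 (LL37), and LL37-injected mice given rapamycin (LL37 + RAPA). No genetic alteration is given for any of them. LL37 is the active peptide of human cathelicidin, and its injection into mouse skin is used as a model of rosacea, a chronic inflammatory disease of facial skin. In this model, 8-week-old mice received 40 μl of the peptide or its vehicle per intradermal injection into the back during 2 days, so the reaction observed is an acute one to an injected human peptide. Rapamycin (RAPA) inhibits the kinase complex mTORC1. A daily dose of 4 mg/kg by intraperitoneal injection is described for BALB/c mice, and the route is not restated for the sequenced animals.

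T cells recognize antigen through a receptor whose signal is carried into the cell by the CD3 chains, the kinases Lck and Zap70 and the adaptor Lat. CD4 and CD8 co-receptors divide the αβ T cells into helper and cytotoxic cells, and ICOS, CTLA-4 and CD28 adjust the strength of the response. Cytotoxic T cells and NK cells kill by releasing perforin and granzymes. Mouse skin differs from human skin in that its epidermis normally holds many γδ T cells, which carry CD3 but usually neither CD4 nor CD8. mTORC1 is activated downstream of antigen and interleukin-2 receptors, and rapamycin is known as an immunosuppressant that slows T cell proliferation.

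Libraries held between 15734559 and 23271784 counts on genes, and a count of 3, taken as the floor, corresponded to between 0.129 and 0.191 CPM (counts relative to the library total, which was scaled by the trimmed mean of M values, TMM). The floor covers counting error only. Along the main axis of variation, which held 68.3% of the variance of the tested genes on the log2 scale, LL37 replicate 3 lay at 64.4 and the other LL37 libraries at 133 and 129, while control libraries lay between -62.6 and -50.2. Neutrophil markers, which stand for another cell type of the infiltrate, summed to between 288.6 and 2601.4 CPM in LL37 skin and between 51.5 and 118.7 CPM in control skin. Skeletal muscle markers summed to between 10.9 and 450.8 CPM in LL37 skin and between 16802 and 26001 CPM in control skin. In control + RAPA skin the neutrophil sum was 70.2 to 89.4 CPM and the muscle sum 19623 to 35072 CPM, both overlapping control, so these differences accompany the comparisons with LL37 or LL37 + RAPA skin. Their part in those results was not tested. In bulk skin, fewer cells of a type and less RNA per cell cannot be told apart. The label of the gene set was borne out in that all 4 CD3 chains were counted in all 12 libraries, with counts between 15 and 63 for Cd3d, Cd3e and Cd247 and between 59 and 180 for Cd3g. Several members are not restricted to lymphocytes, however, and these dominated the summed level.

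Compared per kilobase of exon, the members spanned a wide range. In control skin the highest mean levels were those of Gata3 (32.6 CPM per kilobase) and Thy1 (31.5 CPM per kilobase), followed by Bcl11b at 10.7, Il2rg at 4.36 and Tcf7 at 4.28 CPM per kilobase. GATA-3 and Bcl11b are lymphocyte transcription factors that are also made by keratinocytes, and Thy1 is also made by fibroblasts. Cd3g, at 2.01 CPM per kilobase, was the CD3 chain with the highest level, and Cd3d, Cd3e and Cd247 lay at 0.836, 0.561 and 0.461 CPM per kilobase. Foxp3, Cd4 and Icos lay between 0.112 and 0.206 CPM per kilobase. Gata3, Thy1, Bcl11b and Ptprc together made up between 79.0 and 87.5% of the members' summed CPM in each library. Among the other members, Il2rg, Tcf7 and Il7r still gave between 74 and 594 counts per library, whereas Cd6, Foxp3, Ncr1 and Tbx21 gave at most 22.

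**Figure D1:**
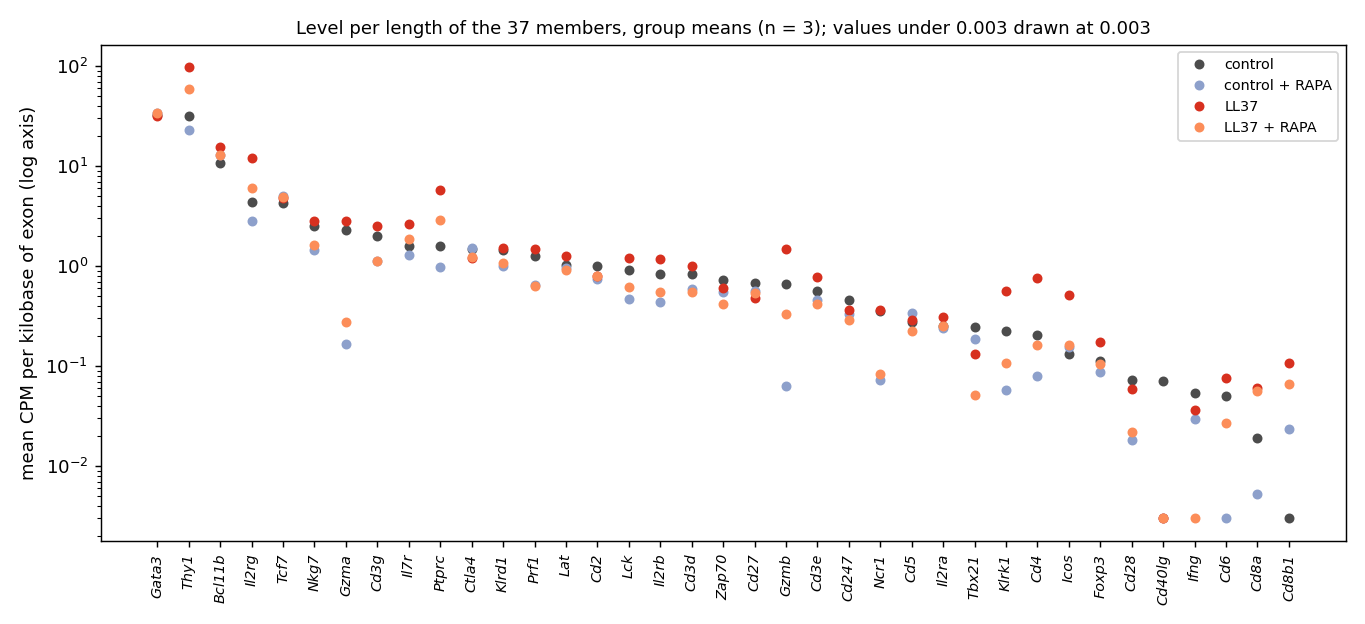
Mean level per kilobase of exon (CPM per kilobase, log axis) of the 37 members, ordered by their level in control skin, with a point for each of the 4 groups (n = 3 libraries each). Gata3 and Thy1 lie above 20 in every group, whereas Cd28, Cd40lg, Ifng, Cd6, Cd8a and Cd8b1 lie near or under 0.1; values under 0.003 are drawn at 0.003.

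Differentially expressed genes (DEGs) had an adjusted p under 0.05 and a log2 fold change beyond 1 in either direction with edgeR's quasi-likelihood test, over 17993 genes. In LL37 vs control, 6 of the 32 tested members were higher and 0 were lower, against 8.73% of all tested genes called higher and 10.8% called lower. The 6 were Cd4, Ptprc, Icos, Thy1, Il2rg and Klrk1. Without the limit on fold change 7 members were higher, Bcl11b being added, against a background of 21%. In LL37 vs LL37 + RAPA, 9 members were higher and 0 lower, against 4.33 and 5.8% of all genes. These were Cd3g, Cd4, Cd6, Icos, Il2rb, Il2rg, Gzma, Prf1 and Klrk1. Without the limit on fold change they numbered 13, with Cd3e, Lck, Ptprc and Thy1 added, against 11.8%. The median log2 fold change of the 32 members was 0.32 in the first comparison and 0.82 in the second, and that of all genes was -0.0049 and -0.0042. Both comparisons use the same LL37 libraries, so they are not independent of each other.

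In LL37 vs control, 10 members were higher in every LL37 library than in any control library, against 23.8% of all genes. Only 2, Zap70 and Cd27, were lower in every LL37 library, against 25.9% of all genes. In LL37 vs LL37 + RAPA, 16 members were higher in every LL37 library and 0 were lower, against 17.6 and 20.7%. The 16 higher members were Cd3e, Cd3g, Cd4, Lck, Cd6, Icos, Il2rb, Il2rg, Bcl11b and 7 of the 8 effector and NK cell genes, Ifng being untested.

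**Figure D2:**
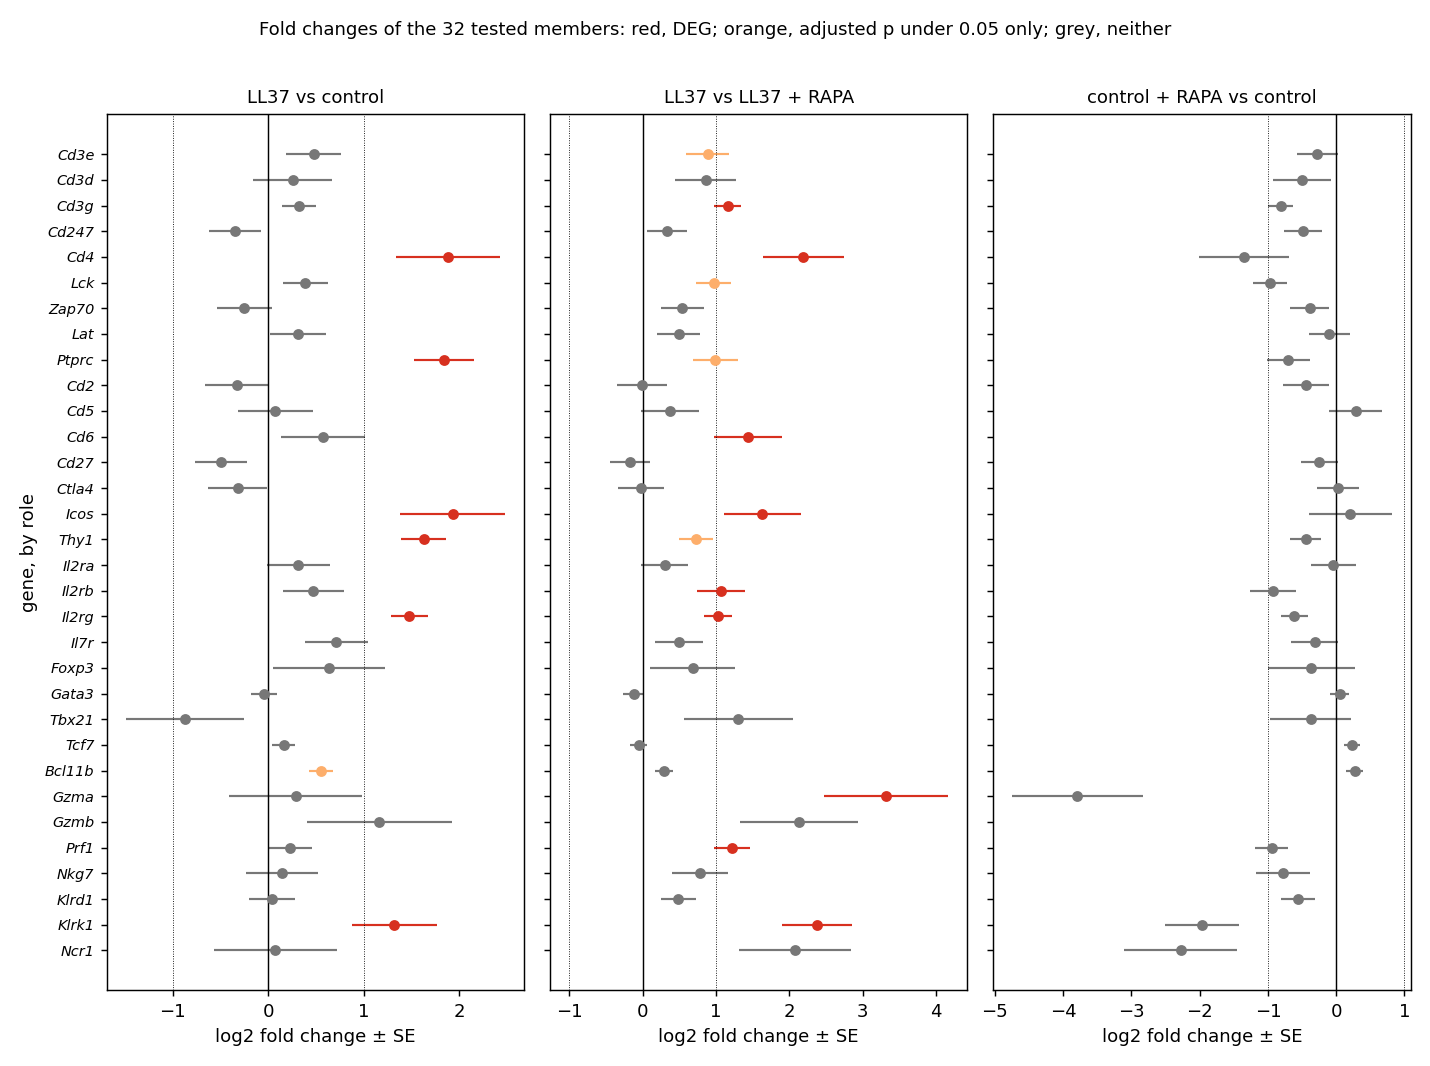
Log2 fold change ± SE (horizontal axis) of the 32 tested members, ordered by role, against control (left), in LL37 vs LL37 + RAPA (middle) and in control + RAPA vs control (right), with DEGs in red, genes past the adjusted p alone in orange and the others in grey. The 9 DEGs of the middle panel all lie to the right of 1, and in the right panel no point is coloured; Cd6 and Gzmb are left out there because control + RAPA was at the floor.

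The CD3 chains form the signalling part of the T cell receptor complex. Cd3g (CD3γ, chr9:44969572-44980431 on GRCm38) was counted 98, 147 and 130 times in control libraries, 64, 87 and 59 times in control + RAPA, 149, 130 and 180 times in LL37 and 80, 75 and 92 times in LL37 + RAPA. All 3 LL37 libraries lay above all LL37 + RAPA libraries once scaled, with means of 8.18 ± 0.26 and 3.67 ± 0.55 CPM (SD, n = 3). The log2 fold change was 1.16 ± 0.18 (SE, edgeR adjusted p = 0.0023) in LL37 vs LL37 + RAPA. Against control, Cd3g in LL37 skin differed by only 0.32 ± 0.18 on the log2 scale (edgeR adjusted p = 0.17, 95% interval -0.07 to 0.71). LL37 + RAPA skin was below control skin, at -0.84 ± 0.18 (edgeR adjusted p = 0.010), with no overlap between libraries.

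Cd3e (CD3ε) gave 31, 49 and 51 counts in control, 29, 42 and 35 in control + RAPA, 52, 62 and 63 in LL37 and 44, 50 and 23 in LL37 + RAPA. It passed the adjusted p in LL37 vs LL37 + RAPA but not the limit on fold change (log2 fold change 0.89 ± 0.29, edgeR adjusted p = 0.047). Its difference between LL37 and control was 0.48 on the log2 scale, with a 95% interval of -0.16 to 1.11. Cd3d (CD3δ) and Cd247 (CD3ζ) passed in neither comparison, with log2 fold changes against control of 0.26 and -0.35 and 95% intervals of -0.64 to 1.15 and -0.94 to 0.24. Those intervals leave room for changes in either direction, and for none of the 4 chains does the upper bound reach 1.2 on the log2 scale. The 4 chains together summed to between 13.2 and 16.2 CPM in LL37 skin, 10.6 and 14.2 in control, 7.0 and 8.5 in LL37 + RAPA, and 7.6 and 9.6 in control + RAPA. The 2 rapamycin groups thus lay below both groups without it, whereas the LL37 and control ranges overlapped. Exons of Cd3e overlap an antisense gene and those of Cd247 overlap Pou2f1 on the other strand, and reads there cannot be assigned with certainty because the strand setting of the counting is not stated.

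Among the co-receptors, which bind MHC molecules beside the receptor, Cd4 was the DEG. Cd4 (chr6:124864692-124888221) was counted 16, 7 and 24 times in control, 10, 6 and 2 times in control + RAPA, 61, 30 and 85 times in LL37 and 11, 28 and 7 times in LL37 + RAPA. Every LL37 library exceeded every library of the other groups, and the 3 other groups overlapped each other. Mean levels were 3.05 ± 1.1 CPM in LL37, 0.829 ± 0.45 CPM in control and 0.661 ± 0.43 CPM in LL37 + RAPA (SD, n = 3). Cd4 was higher in LL37 than in control by 1.88 ± 0.55 on the log2 scale (edgeR adjusted p = 0.016) and higher than in LL37 + RAPA by 2.19 ± 0.55 (edgeR adjusted p = 0.016). CD4 is also found on some macrophages and dendritic cells in addition to helper T cells. Macrophage markers summed to between 1250.4 and 1829.6 CPM in LL37 skin, 723.4 and 1150.2 in LL37 + RAPA and 343.1 and 671.7 in control, and 5 of the 8 were DEGs in LL37 vs control and 2 of the 8 in LL37 vs LL37 + RAPA. Their part in the Cd4 result was not tested.

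The CD8 co-receptor was near the limit of detection. Cd8a, encoding the α chain, gave 0, 0 and 4 counts in control, 0, 0 and 1 in control + RAPA, 5, 4 and 3 in LL37 and 4, 7 and 3 in LL37 + RAPA. Cd8b1, encoding the β chain, gave 0 counts in each control library and between 0 and 7 counts in the others. At this depth no statement about CD8 cells could be made in any comparison.

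Of the signalling proteins, Ptprc and Lck stood out. Ptprc (chr1:138062861-138175708) encodes CD45, the phosphatase carried by all nucleated blood cells and therefore not particular to lymphocytes. It was counted 659, 400 and 602 times in control, 245, 371 and 389 times in control + RAPA, 2270, 2073 and 1356 times in LL37 and 769, 1580 and 1265 times in LL37 + RAPA. All LL37 libraries lay above all control libraries, whereas LL37 replicate 3 fell within the LL37 + RAPA range after scaling. Ptprc was higher in LL37 than in control by 1.84 ± 0.31 on the log2 scale (edgeR adjusted p = 0.00076), and higher than in LL37 + RAPA by 0.99 ± 0.30 (edgeR adjusted p = 0.036), just inside the limit on fold change. Lck, the kinase that phosphorylates the CD3 chains, had a log2 fold change of 0.39 ± 0.24 against control (edgeR adjusted p = 0.21) and 0.97 ± 0.24 against LL37 + RAPA (edgeR adjusted p = 0.015), with counts of 49 to 91 in LL37 and 34 to 44 in LL37 + RAPA that did not overlap. The kinase Zap70 and the adaptor Lat passed in neither comparison. Zap70 was lower in every LL37 library than in any control library, although by only -0.25 ± 0.29 on the log2 scale (edgeR adjusted p = 0.52).

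Among the surface proteins, Icos, Thy1 and Cd6 were DEGs in at least 1 comparison. Icos (chr1:60977927-61000320), a costimulatory receptor that appears on activated T cells, was counted 6, 9 and 11 times in control, 11, 4 and 14 times in control + RAPA, 45, 20 and 34 times in LL37 and 7, 25 and 7 times in LL37 + RAPA. The LL37 libraries were the highest of all after scaling, with LL37 + RAPA replicate 2 nearest to them. Icos was higher in LL37 than in control by 1.94 ± 0.55 on the log2 scale (edgeR adjusted p = 0.014) and higher than in LL37 + RAPA by 1.63 ± 0.53 (edgeR adjusted p = 0.042). The second of these calls was lost under 10 of 20 alternatives.

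Thy1 (chr9:44043384-44048579), the CD90 glycoprotein of mouse T cells and fibroblasts, was counted 2069, 1590 and 1709 times in control, 1454, 1072 and 1320 times in control + RAPA, 5799, 5902 and 4225 times in LL37 and 3199, 5230 and 3594 times in LL37 + RAPA. LL37 libraries were above every control library, but LL37 replicate 3 lay between LL37 + RAPA libraries after scaling. Thy1 was higher in LL37 than in control by 1.63 ± 0.23 (edgeR adjusted p = 0.00026) and higher than in LL37 + RAPA by 0.73 ± 0.23 on the log2 scale (edgeR adjusted p = 0.038). Of the 6 fibroblast markers, 0 were DEGs in either comparison, while Pdgfra and Lum passed the adjusted p in LL37 vs control with log2 fold changes of 0.96 and 0.88. Fibroblast markers summed to between 3828.1 and 5307.0 CPM in LL37 and between 2479.7 and 5574.5 CPM in control, and their part in the Thy1 result was not tested.

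Cd6, a scavenger-receptor protein that restrains T cell activation, was rare. It was counted 11, 7 and 5 times in control, 0 times in each control + RAPA library, 11, 9 and 14 times in LL37 and 3, 8 and 4 times in LL37 + RAPA. It was higher in LL37 than in LL37 + RAPA by 1.44 ± 0.46 on the log2 scale (edgeR adjusted p = 0.048), and 16 of 20 alternatives lost this call. Taking 3 counts per library as the floor, Cd6 was at least 2.51-fold lower in control + RAPA than the control mean. This bound leaves out the spread of the control libraries, and edgeR did not call Cd6 in that comparison.

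Cd2, Cd5, Cd27 and Ctla4 passed in neither comparison. CTLA-4 is the inhibitory counterpart of CD28, and Ctla4 had mean levels between 2.80 and 3.55 CPM over the 4 groups, with a difference between LL37 and control of -0.32 ± 0.31 on the log2 scale (edgeR adjusted p = 0.44). CD27 is a costimulatory receptor of the TNF receptor family, and Cd27 was lower in every LL37 library than in any control library, at means of 1.11 and 1.56 CPM, without passing the test (log2 fold change -0.49 ± 0.27, edgeR adjusted p = 0.17). Cd2 and Cd5, an adhesion molecule and a negative regulator of receptor signalling, differed from control by -0.33 and 0.08 on the log2 scale. Cd28 gave between 0 and 10 counts per library. Cd40lg, the helper cell ligand for CD40, gave at most 2 counts in any library and was at the floor in all 4 groups.

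The cytokine receptor chains included the receptor subunits for interleukin-2 and interleukin-7. Il2rg (chrX:101264378-101268255), the common γ chain shared by several interleukin receptors and present on many leukocytes, was counted 196, 177 and 220 times in control, 131, 119 and 130 times in control + RAPA, 594, 549 and 451 times in LL37 and 246, 359 and 365 times in LL37 + RAPA. The order of groups was the same in every library, with LL37 above LL37 + RAPA, LL37 + RAPA above control and control above control + RAPA after scaling. Its mean levels were 29.1 ± 6.8, 14.3 ± 2.4, 10.4 ± 1.3 and 6.82 ± 0.84 CPM in that order (SD, n = 3). Il2rg was a DEG in LL37 vs control (log2 fold change 1.48 ± 0.20, edgeR adjusted p = 0.00016) and in LL37 vs LL37 + RAPA (1.02 ± 0.19, edgeR adjusted p = 0.0045). An annotated transcript, Gm20489, shares exonic bases with Il2rg on the same strand, so reads could have been split or set aside there.

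Il2rb (chr15:78479256-78495271), the β chain used by interleukin-2 and interleukin-15 and abundant on NK cells, was counted 77, 37 and 91 times in control, 40, 42 and 25 times in control + RAPA, 113, 69 and 99 times in LL37 and 44, 73 and 46 times in LL37 + RAPA. LL37 and control libraries overlapped and LL37 and LL37 + RAPA libraries did not. The log2 fold change was 0.47 ± 0.32 against control (edgeR adjusted p = 0.26) and 1.07 ± 0.32 against LL37 + RAPA (edgeR adjusted p = 0.034). Il2ra, the high-affinity α chain of activated and regulatory T cells, and Il7r, the interleukin-7 receptor chain of resting T cells and innate lymphoid cells, passed in neither comparison. Il7r had means of 12.3 ± 3.8 CPM in LL37 and 7.49 ± 2.7 CPM in control.

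Of the 5 transcription factors, 0 were DEGs in either comparison. Gata3, which directs type 2 helper cells, had means between 125 and 137 CPM in the 4 groups, and its 95% interval for LL37 vs control was -0.35 to 0.26 on the log2 scale. Tcf7, which encodes TCF-1 of resting T cells, had means between 11.2 and 13.2 CPM. Bcl11b, which fixes T cell identity, was higher in LL37 than in control by 0.55 ± 0.13 on the log2 scale (edgeR adjusted p = 0.0049), under the limit on fold change. Keratinocytes also make Bcl11b, and all 6 keratinocyte markers had positive log2 fold changes against control, 2 being DEGs. Against LL37 + RAPA all 6 were positive too, with 0 DEGs and 3 past the adjusted p. They summed to between 26444 and 36548 CPM in LL37, 19267 and 26768 in control, and 20572 and 22145 in LL37 + RAPA. Their part in the Bcl11b result was not tested. Foxp3, the factor of regulatory T cells, was counted 12, 4 and 13 times in control, 4, 7 and 11 times in control + RAPA, 19, 14 and 11 times in LL37 and 7, 22 and 5 times in LL37 + RAPA, so that all 4 groups overlapped. Its interval for LL37 vs control, -0.65 to 1.93 on the log2 scale, was wide, and several other genes overlap its exons. Tbx21, encoding T-bet of type 1 helper and NK cells, was counted 4, 4 and 11 times in LL37 and 14, 5 and 16 times in control, a log2 fold change of -0.87 ± 0.62 (edgeR adjusted p = 0.28). In LL37 + RAPA it was counted 2, 6 and 1 times, below every control library after scaling, with an edgeR adjusted p of 0.057.

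**Figure D3:**
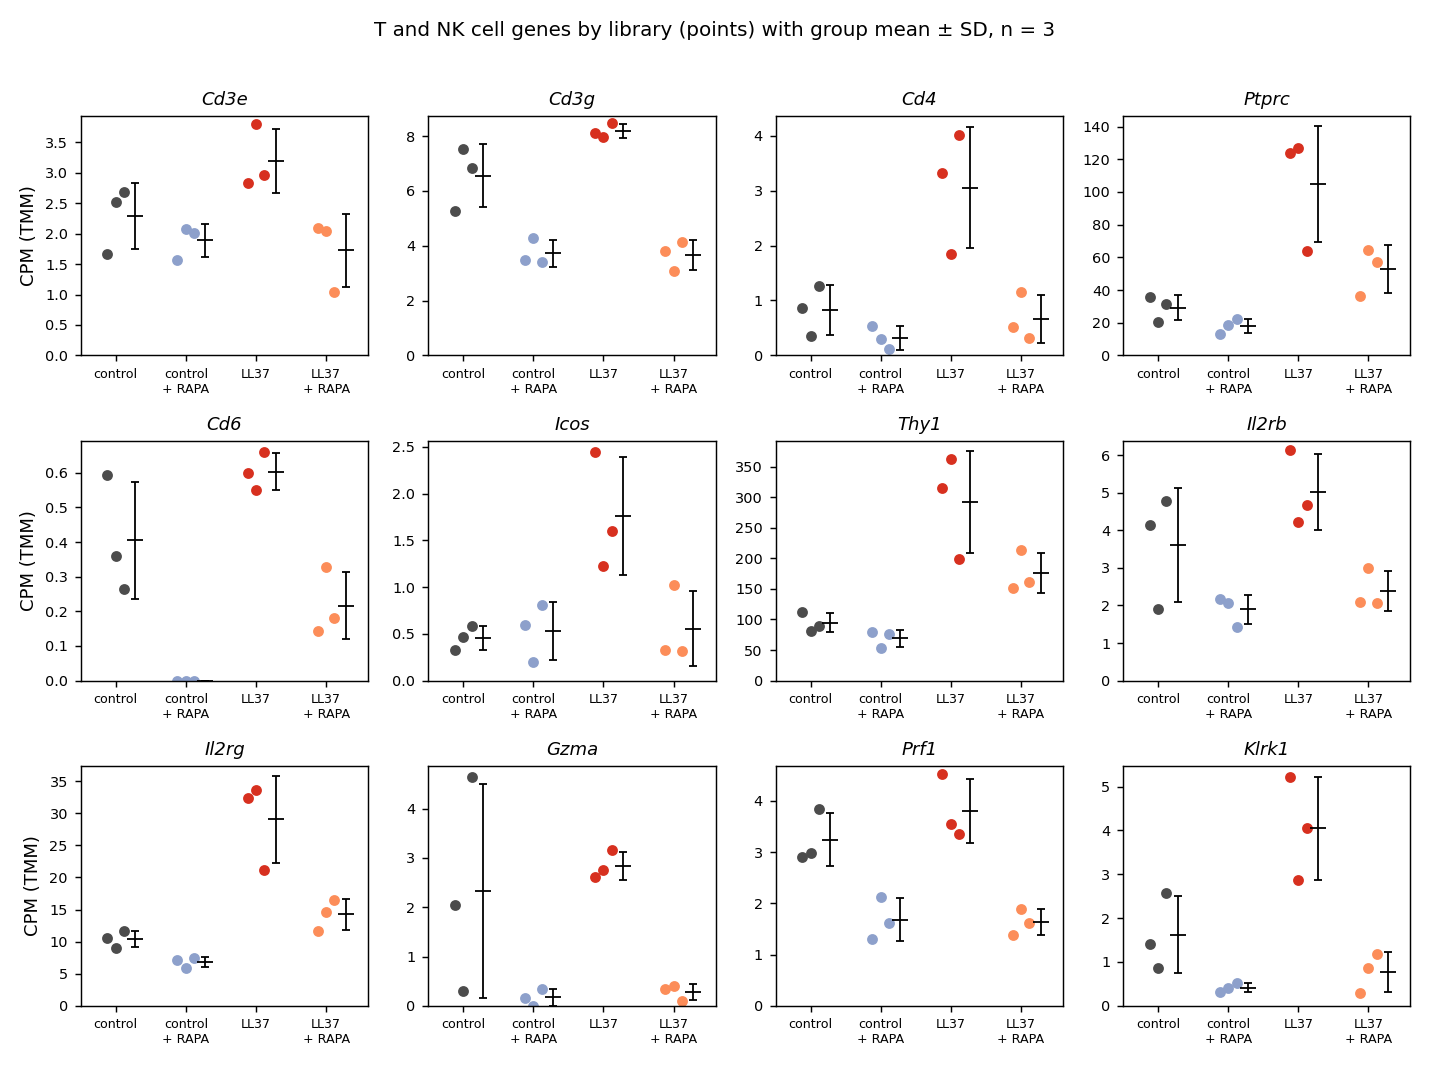
Level (CPM, TMM scaled) of Cd3e and of the 11 members that are DEGs of LL37 skin against control or LL37 + RAPA skin, with a point for each library and the group mean ± SD (n = 3) as a bar. For Cd3g, Cd4, Cd6, Icos, Il2rb, Il2rg, Gzma, Prf1 and Klrk1 the 3 LL37 points lie above the 3 LL37 + RAPA points, whereas for Ptprc and Thy1 the lowest LL37 point falls inside the LL37 + RAPA range.

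Among the role groups with more than 1 tested gene, the effector molecules and NK cell receptors had the largest median difference between LL37 and LL37 + RAPA. Of the 7 tested genes, 3 were DEGs in LL37 vs LL37 + RAPA (Gzma, Prf1 and Klrk1) and 1 in LL37 vs control (Klrk1). Their median log2 fold change was 2.07 in the first of these comparisons and 0.23 in the second. They were also lower with rapamycin in control skin, where the median in control + RAPA vs control was -1.96. There 6 of the 7 had an unadjusted p under 0.05 and 0 passed after adjustment, with Gzmb at the floor in control + RAPA. Promoter stretches are shown for the 5 of the 9 members called against LL37 + RAPA that the promoter table held, to show which motifs of lymphocyte factors their starts hold. The stretches are the 250 bases before the RefSeq start on GRCm38.p6, read 5′ to 3′ in the direction of the gene, with capitals marking the motifs found. Prf1 lies at chr10:61297586-61297835 on the plus strand, and the others lie on the minus strand, Klrk1 at chr6:129623865-129624114, Cd3g at chr9:44980432-44980681, Gzma at chr13:113100982-113101231 and Il2rg at chrX:101268256-101268505.
Prf1: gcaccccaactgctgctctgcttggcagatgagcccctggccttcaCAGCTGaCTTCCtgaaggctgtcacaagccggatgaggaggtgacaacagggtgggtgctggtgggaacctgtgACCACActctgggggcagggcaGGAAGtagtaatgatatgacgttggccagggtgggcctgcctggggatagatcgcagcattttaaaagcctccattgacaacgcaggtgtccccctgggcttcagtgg
Klrk1: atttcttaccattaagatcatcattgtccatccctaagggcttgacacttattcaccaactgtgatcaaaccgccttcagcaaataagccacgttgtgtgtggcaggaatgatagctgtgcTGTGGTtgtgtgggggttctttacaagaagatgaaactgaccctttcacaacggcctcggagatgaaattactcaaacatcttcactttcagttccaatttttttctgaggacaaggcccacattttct
Gzma: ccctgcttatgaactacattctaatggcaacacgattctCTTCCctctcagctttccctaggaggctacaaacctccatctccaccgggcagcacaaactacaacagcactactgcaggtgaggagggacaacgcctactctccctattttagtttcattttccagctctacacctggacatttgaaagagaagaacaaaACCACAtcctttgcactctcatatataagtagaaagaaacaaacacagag
Il2rg: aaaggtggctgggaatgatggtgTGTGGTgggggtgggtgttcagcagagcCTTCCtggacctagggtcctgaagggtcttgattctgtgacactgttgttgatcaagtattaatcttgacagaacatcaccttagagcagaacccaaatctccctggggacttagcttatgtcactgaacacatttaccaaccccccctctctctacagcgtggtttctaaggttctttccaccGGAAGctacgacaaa
Cd3g: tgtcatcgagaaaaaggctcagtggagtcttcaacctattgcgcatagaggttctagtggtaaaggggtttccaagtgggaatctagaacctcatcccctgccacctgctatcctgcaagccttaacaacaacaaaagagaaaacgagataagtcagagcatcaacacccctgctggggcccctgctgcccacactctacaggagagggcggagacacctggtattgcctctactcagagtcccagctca

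The motifs searched on both strands were GGAAG (core of ETS sites), TGTGGT (RUNX), TCACAC (T-box), TGACTCA (AP-1), CAGCTG (E-box) and TTCNNNGAA (STAT). Except for that of Cd3g, each stretch held TGTGGT or its complement once, starting 130 bases before the start in Prf1, 129 in Klrk1, 50 in Gzma and 227 in Il2rg. Prf1 and Il2rg each held 2 matches to GGAAG, Gzma held 1 and Klrk1 none, Prf1 also held CAGCTG, and no 2 matches in these stretches overlapped. The stretch of Cd3g held none of the 6 motifs. TGTGGT was present in 29.4% of 34 windows from the 27 members found in the promoter table and in 14.0% of all 32851 windows, and GGAAG in 79.4 and 64.1%. For TCACAC the shares were 23.5 and 12.3%, for TTCNNNGAA 14.7 and 7.02%, for CAGCTG 8.82 and 13.0% and for TGACTCA 2.94 and 4.46%. These matches describe letters in a window and do not show that a factor binds there.

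Gzma (chr13:113093825-113100981), encoding granzyme A, a protease of cytotoxic granules, was counted 38, 6 and 88 times in control, 3, 0 and 6 times in control + RAPA, 48, 45 and 67 times in LL37 and 7, 10 and 2 times in LL37 + RAPA. The LL37 libraries lay close together within the broad control range, and no library of either rapamycin group held more than 10 counts. Gzma was higher in LL37 than in LL37 + RAPA by 3.32 ± 0.85 on the log2 scale (edgeR adjusted p = 0.017, 95% interval 1.47 to 5.17). Against control, the difference was 0.29 ± 0.70 (edgeR adjusted p = 0.77). Its control mean of 2.33 ± 2.2 CPM shows how much the control libraries differed from each other.

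Prf1 (chr10:61297833-61304680), encoding perforin, the pore-forming protein of the same granules, was counted 54, 58 and 73 times in control, 24, 43 and 28 times in control + RAPA, 83, 58 and 71 times in LL37 and 29, 46 and 36 times in LL37 + RAPA. Both rapamycin groups lay below both groups without it, with no overlap. Means were 3.81 ± 0.63 CPM in LL37, 3.24 ± 0.52 in control, 1.63 ± 0.25 in LL37 + RAPA and 1.68 ± 0.42 in control + RAPA (SD, n = 3). The log2 fold change was 1.22 ± 0.24 in LL37 vs LL37 + RAPA (edgeR adjusted p = 0.0057) and 0.23 ± 0.23 in LL37 vs control (edgeR adjusted p = 0.46).

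Klrk1 (chr6:129610323-129623864), encoding the activating receptor NKG2D of NK cells and of some T cells, was counted 26, 17 and 49 times in control, 6, 8 and 9 times in control + RAPA, 96, 47 and 86 times in LL37 and 6, 21 and 26 times in LL37 + RAPA. The LL37 libraries exceeded all others after scaling. It was a DEG both against control (log2 fold change 1.32 ± 0.45, edgeR adjusted p = 0.033) and against LL37 + RAPA (2.38 ± 0.48, edgeR adjusted p = 0.0060).

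Gzmb, encoding granzyme B, was counted 8, 1 and 45 times in control, 3, 1 and 1 times in control + RAPA, 59, 27 and 33 times in LL37 and 7, 16 and 10 times in LL37 + RAPA. The LL37 and LL37 + RAPA libraries did not overlap, yet the test was not passed (log2 fold change 2.13 ± 0.80, edgeR adjusted p = 0.072). Gzmb was called in this comparison by DESeq2, by a fit of the compared groups and without control replicate 2 or 3. Ncr1, encoding NKp46, a receptor that marks NK cells, was counted 13, 3 and 15 times in control, 1, 1 and 4 times in control + RAPA, 5, 7 and 21 times in LL37 and 1, 5 and 3 times in LL37 + RAPA. Its levels in LL37 and control were alike in size, at 0.563 ± 0.38 and 0.548 ± 0.34 CPM, with a 95% interval of -1.34 to 1.48 for their log2 ratio, and LL37 vs LL37 + RAPA gave 2.07 ± 0.76 (edgeR adjusted p = 0.069). Nkg7, a cytotoxic granule protein, and Klrd1, encoding the NK receptor chain CD94, passed in neither comparison, although neither overlapped between LL37 and LL37 + RAPA. Ifng, encoding interferon-γ, gave at most 3 counts in any library, so all 4 groups were at the floor and no fold change was computed.

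The residual state of LL37 skin under rapamycin was examined in LL37 + RAPA vs control. There, 1 member was lower (Gzma, log2 fold change -3.03 ± 0.85, edgeR adjusted p = 0.035) and 0 were higher, against 4.35 and 2.15% of all genes. The Gzma libraries of these groups overlapped, since control replicate 2 held 6 counts, and the call was lost under 8 of the 20 alternatives in which Gzma was tested, among them each of the 3 fits without a LL37 + RAPA library. Without the limit on fold change, 3 members were lower, Cd3g (-0.84), Prf1 (-0.99) and Gzma, against 9.01% of all genes, and Thy1 was higher by 0.90 ± 0.23 (edgeR adjusted p = 0.022). In 7 of the 32 members every LL37 + RAPA library was below every control library (Cd3g, Cd247, Zap70, Cd27, Tbx21, Prf1 and Klrd1) and in 4 above it (Ptprc, Thy1, Il2rg and Tcf7), shares near the 19.5 and 16.9% of all genes.

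Rapamycin alone was examined in control + RAPA vs control. There, 0 of 17993 genes were called by edgeR, a background of 0%, and hence 0 members. At an unadjusted p under 0.05, 12 of the 32 members passed and all 12 were lower, compared with 822 lower genes among all tested, or 4.57%. The 12 were Cd3g, Lck, Ptprc, Cd6, Il2rb, Il2rg, Gzma, Gzmb, Prf1, Klrd1, Klrk1 and Ncr1. None of them passed after adjustment, the smallest edgeR adjusted p being 0.19 (Cd6). DESeq2, over 31949 genes, called 2 members, Cd6 and Gzma, against 51 genes in all (0.16%). In 10 members every control + RAPA library was below every control library, against 7.42% of all genes. Macrophage markers moved the same way, 7 of 8 being lower with a median of -0.51 and 4 having an unadjusted p under 0.05, and fibroblast markers had a median of -0.69 with 3 of 6 under 0.05. Their part in these values, which include Ptprc and Il2rg of many leukocytes, was not tested. Prf1 and Klrk1 were among the 10 members, at log2 fold changes of -0.94 ± 0.24 and -1.96 ± 0.54. Gzmb was at the floor in control + RAPA, and its control counts of 8, 1 and 45 rest mainly on replicate 3, so no fold is given.

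The difference with rapamycin could be compared between LL37 and control skin, since these contrasts share no library. The estimate was lower with rapamycin in LL37 skin for 27 of 32 members and in control skin for 26, and in both for 24, or 75%, compared with 29.1% of all tested genes. The median difference with rapamycin was -0.82 on the log2 scale in LL37 skin and -0.47 in control skin, and the second value stayed at -0.47 with Cd6 and Gzmb set to their bounds. Icos, by contrast, was lower with rapamycin in LL37 skin by 1.63 on the log2 scale, with a log2 fold change of 0.20 ± 0.61 in control skin. The interaction, which tests whether the LL37 difference itself differed with rapamycin, called 0 of 32 members, against 2.38% of all genes (429 genes). At an unadjusted p under 0.05, 3 members passed it, Cd6, Bcl11b and Icos, with edgeR adjusted p of 0.066, 0.10 and 0.21. The share of all genes at that limit is not given here, so this count has no background. DESeq2 called 0 members, against 3.17% of its 31949 genes.

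**Figure D4:**
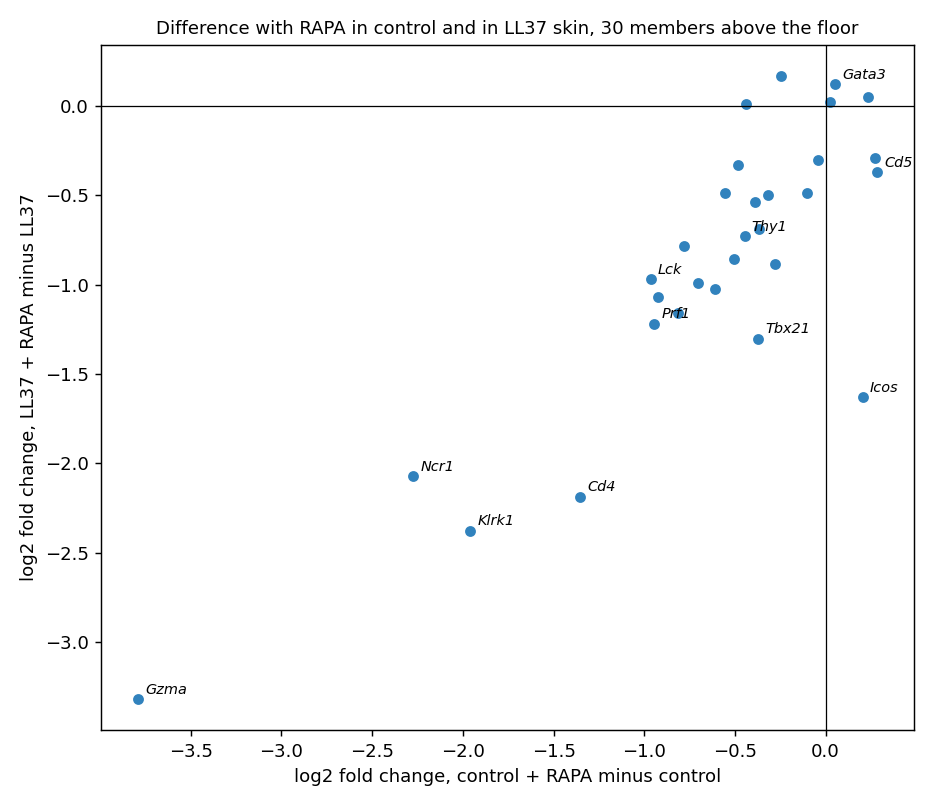
Log2 fold change with rapamycin in control skin (horizontal axis, control + RAPA minus control) and in LL37 skin (vertical axis, LL37 + RAPA minus LL37), with a point for each of 30 tested members, Cd6 and Gzmb being left out because control + RAPA was at the floor. Gzma lies lowest at -3.79 and -3.32, most points lie at the lower left of both zero lines, and Icos, Cd5 and Bcl11b lie below 0 on the vertical axis alone.

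Between the rapamycin groups, LL37 + RAPA vs control + RAPA, 4 members were higher and 0 lower, against 4.07 and 4.32% of all genes. Thy1, Ptprc and Il2rg, which other cell types also make, were higher by 1.35 ± 0.23, 1.55 ± 0.31 and 1.07 ± 0.20 on the log2 scale (edgeR adjusted p = 0.0020, 0.0052 and 0.0033). The other was Cd6, which had 0 counts in every control + RAPA library and was at least 1.34-fold higher in LL37 + RAPA, so its call rests on a fitted value beyond that bound. Cd4, Icos, Klrk1 and Prf1 were not called, with log2 fold changes of 1.05 ± 0.66, 0.10 ± 0.58, 0.91 ± 0.56 and -0.05 ± 0.25. In the same comparison, 5 of 8 macrophage markers and 3 of 6 fibroblast markers were higher DEGs. Their part in the Thy1, Ptprc and Il2rg results was not tested.

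A further 83 genes of the T and NK cell pathway were listed, of which 59 were tested. In LL37 vs control 18 were higher and 2 lower, and in LL37 vs LL37 + RAPA 14 were higher and 2 lower, beside 8.73 and 10.8% of all genes in the first comparison and 4.33 and 5.8% in the second. By list, the checkpoint and costimulatory receptors held 5 higher DEGs of 11 tested against control, the homing and residency genes 4 of 10, the lymphoid cytokines and their receptors 4 of 7, the signalling and adaptor genes 2 of 9 with 1 lower, the transcription factors 2 of 12 with 1 lower, and the NK receptors and cytotoxic genes 1 of 4. Against LL37 + RAPA the same lists held 4, 4, 2, 2, 0 and 2 higher DEGs, with 1 lower among the transcription factors and 1 lower among the NK receptors and cytotoxic genes.

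The T cell receptor constant genes held 0 DEGs of 6 tested in both comparisons, Trac being untested. They summed to between 22.9 and 30.6 CPM in LL37 skin and between 24.6 and 35.6 CPM in control skin. Trdc, the constant gene of the δ chain of γδ T cells, was counted 47, 65 and 65 times in control, 40, 48 and 23 times in control + RAPA, 80, 73 and 100 times in LL37 and 45, 50 and 73 times in LL37 + RAPA. It passed the adjusted p in LL37 vs LL37 + RAPA (log2 fold change 0.86 ± 0.26, edgeR adjusted p = 0.032) and not in LL37 vs control (0.54 ± 0.25, edgeR adjusted p = 0.11). Trbc2, a constant gene of the β chain of αβ T cells, gave -0.21 ± 0.19 (edgeR adjusted p = 0.44) and -0.43 ± 0.19 (edgeR adjusted p = 0.091) in the same comparisons. Trbc2 was the exception, since 5 of the 6 tested constant genes had a positive log2 fold change in each comparison. The median of the 6 was 0.16 against control and 0.58 against LL37 + RAPA. Trbc1, also of the β chain, was among the positive genes, so Trbc2 does not stand for the αβ genes as a group.

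**Figure D5:**
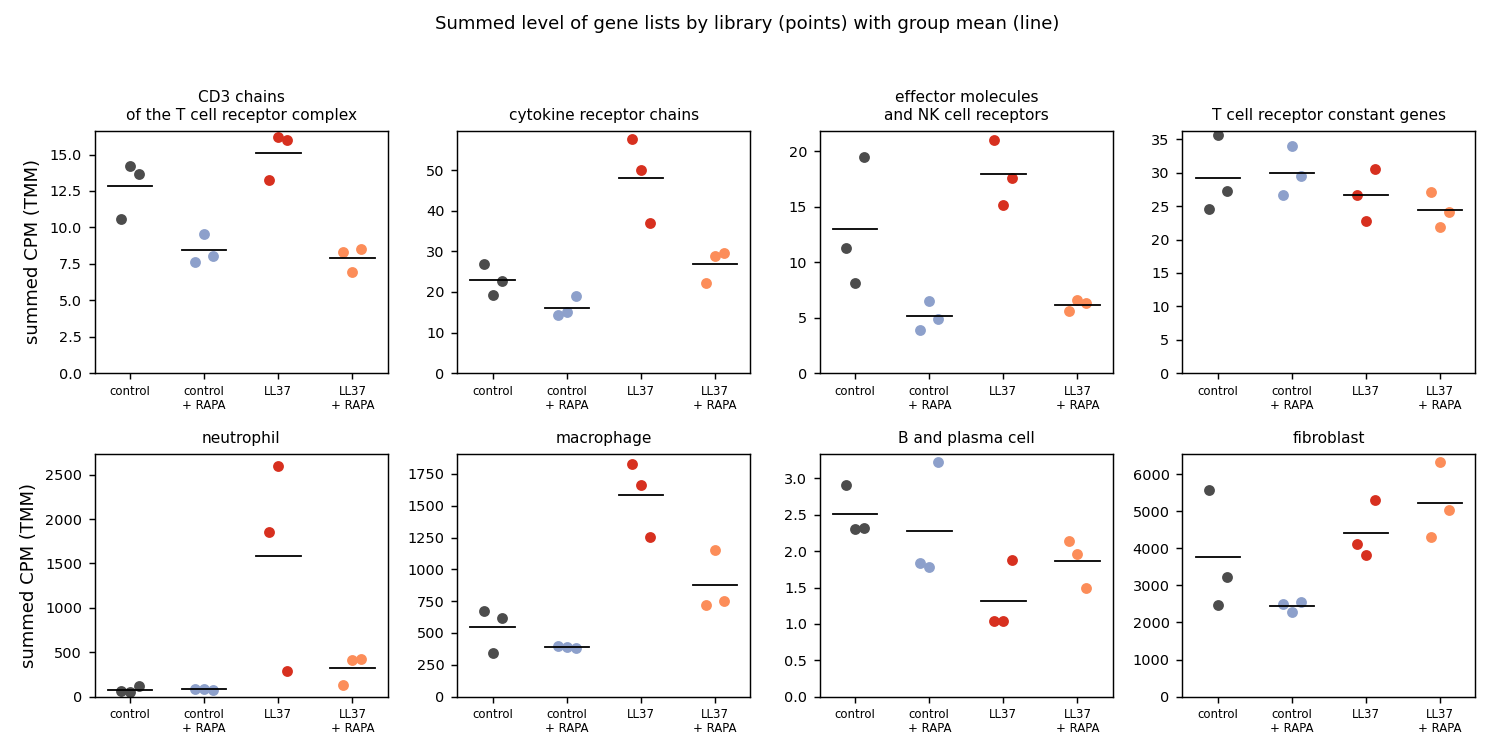
Summed level (CPM, TMM scaled) of 4 lists of T and NK cell genes and 4 marker lists of other cell types, with a point for each library and a line at the group mean (n = 3). The CD3 chains and the effector genes lie lower in both rapamycin groups than in LL37 skin, and the constant genes overlap in all 4 groups. The macrophage markers are highest in the LL37 libraries. The neutrophil markers have their highest mean in LL37 skin, but LL37 replicate 3 falls inside the LL37 + RAPA range.

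Activation and signalling genes were prominent among the further DEGs with the smallest p. Tnfrsf9, encoding the costimulatory receptor 4-1BB, was counted 10, 6 and 18 times in control, 169, 132 and 140 times in LL37 and 24, 65 and 30 times in LL37 + RAPA, and was higher in LL37 by 3.72 ± 0.47 and 2.20 ± 0.41 on the log2 scale than in control and LL37 + RAPA (edgeR adjusted p = 0.00011 and 0.0044). Ccr7, the lymph node homing receptor of T cells and mature dendritic cells, was higher by 3.20 ± 0.49 and 1.95 ± 0.44. Gzmc, encoding granzyme C, was higher by 1.44 ± 0.24 and 1.48 ± 0.24, with the caution that granzyme genes are close relatives and may share reads. Slamf6, a receptor of lymphocytes, was counted 35, 35 and 18 times in LL37 and 5, 9 and 4 times in LL37 + RAPA, a log2 fold change of 2.59 ± 0.61 (edgeR adjusted p = 0.013). Both Lcp2, the adaptor SLP-76, and Itgal, the αL integrin chain, were DEGs in both comparisons, at 2.71 and 2.58 against control and 1.38 and 1.45 against LL37 + RAPA. Runx3, a transcription factor of cytotoxic cells, and Havcr2, encoding the checkpoint receptor TIM-3, were DEGs in LL37 vs control but not in LL37 vs LL37 + RAPA, at 1.09 and 1.27 in the former. The same held for Il18rap, a chain of the interleukin-18 receptor, at 3.61.

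Several of these genes are also used by myeloid cells, Il18rap, Itgal and Lcp2 among them. Prkcq, encoding the protein kinase Cθ of T cells and skeletal muscle, was a lower DEG and fell in LL37 by 1.45 on the log2 scale (SE 0.22, edgeR adjusted p = 0.00038). All 6 tested skeletal muscle markers were also lower DEGs in that comparison, and their part in the Prkcq result was not tested.

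Markers of other cells that could carry the members were read alongside. In LL37 vs control, 7 of 7 tested neutrophil markers and 5 of 8 macrophage markers were higher DEGs, and in LL37 vs LL37 + RAPA 3 and 2 were. Ly6g, which defines neutrophils and was not tested, gave 0, 0 and 1 counts in control and 25, 16 and 10 counts in LL37. In LL37 + RAPA the neutrophil sum ranged from 131.8 to 424.7 CPM. B and plasma cell markers were low everywhere, with sums between 1.03 and 3.22 CPM in the 12 libraries and 0 DEGs in either comparison, although only 1 of the 7 was tested. Mast cell markers also held 0 DEGs of 7 in either comparison, and dendritic and Langerhans cell markers held 1 of 7 against control and 0 against LL37 + RAPA.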

How the data were processed

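Per the labels, total RNA from skin was prepared with the Illumina TruSeq kit. The authors deposited raw read counts per Ensembl gene, without normalization. The study's methods name HTSeq for the counting, whereas the submitters' processing notes name HISAT2 2.0.5, StringTie 1.3.3b, featureCounts 1.5.0-p3, DESeq2 1.16.1 and mm10, with no roles given. Strand and multimapping settings are not given in the sources used here. Symbols, positions and exon lengths come from GENCODE M21 on GRCm38, and 52403 of 52636 genes matched.

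From these counts, edgeR 4.0.16 (R 4.3.3, limma 3.58.1) fitted group means over all 12 libraries after filterByExpr and TMM, with quasi-likelihood F-tests and Benjamini-Hochberg adjustment over 17993 genes. DESeq2 1.42.0 and other normalizations, filters and sample choices served as alternatives. The floor was 3 counts per library, at 95% confidence for a count of 0. Depth was 15734559 to 23271784 counts.

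The members and lists were chosen with earlier results of these data known. Values in every library are given for called members and for Cd3e, Cd4, Cd8a, Foxp3, Ncr1, Ifng and Gzmb, and of the other pathway genes the 12 called with the smallest p were chosen, 2 of which are not reported here; further markers and Trdc, Trbc2 and Tbx21 were added after their values were seen. Promoters come from RefSeq (GRCm38.p6). Mice are 3 independent samples per group, and samples with the same number are not described as paired.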

Additional observations from a re-analysis of the deposited data

How the results depend on the processing

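Under the normalizations, filters, tests and sample choices tried, no called member changed direction. Thy1, Ptprc and Il2rg in LL37 vs control, and Cd3g, Prf1 and Klrk1 in LL37 vs LL37 + RAPA, kept their calls under every alternative in which they were tested. Requiring at least 10 counts in every library left 3 members called in LL37 vs control, 4 in LL37 vs LL37 + RAPA and 0 in LL37 + RAPA vs control, since fewer genes were tested. The shares of all genes called there were 16, 8.26 and 5.03%. In LL37 + RAPA vs control, where 1 member was called, library size scaling gave 2, DESeq2 2, no limit on fold change 4 and a fit of the compared groups 0. Of all genes they called 6.96, 4.1, 14 and 7.33%, in that order. In control + RAPA vs control DESeq2 called 2 members, against 0.16% of its 31949 genes. The cause of these shifts was not tested. Library size scaling moved the median log2 fold change of all genes to 0.13 in LL37 + RAPA vs control, 0.18 in LL37 + RAPA vs control + RAPA and -0.11 in the interaction.

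With each library left out in turn, the members called ranged from 4 to 7 in LL37 vs control, 4 to 10 in LL37 vs LL37 + RAPA, 0 to 3 in LL37 + RAPA vs control, 3 to 4 in LL37 + RAPA vs control + RAPA and 0 to 1 in the interaction, where Cd6 was called without LL37 replicate 3. Without LL37 replicate 3 the interaction called 9.57% of all genes, compared with 2.38% in the fit of all 12 libraries. In LL37 vs LL37 + RAPA, leaving out replicate 1 or 3 of LL37 + RAPA gave 4 members, against 6.51 and 7.82% of all genes. Leaving out replicate 1 of LL37 gave 5, against 6%. In LL37 + RAPA vs control, the count was 2 without control replicate 1 (Prf1 and Thy1), 3 without control replicate 2 (Gzma, Prf1 and Tbx21), 2 without LL37 replicate 3 (Gzma and Tbx21) and 1 without LL37 + RAPA replicate 2 (Prf1). These fits called 5.57, 5.41, 7.58 and 4.31% of all genes. The count was 0 without replicate 3 of control, replicate 1 or 3 of LL37 + RAPA, or replicate 1 of control + RAPA, against 5.1, 6.28, 4.92 and 6.04%. Counts this small are not read as results about the members. Deviations of samples with the same replicate number correlated at -0.188 to 0.263, above 0.1 in 4 of 18 pairs. For different numbers the range was -0.303 to 0.277. Because the deviations are taken from means of 3 libraries, this cannot decide whether the numbers pair the samples. With the replicate number as a block, 6 members were called in LL37 vs control, 6 in LL37 vs LL37 + RAPA (Cd6, Icos and Il2rb no longer), 0 in LL37 + RAPA vs control, 0 in control + RAPA vs control, 4 in LL37 + RAPA vs control + RAPA and 0 in the interaction. Of all genes that fit called 19.3, 9.46, 6.01, 0, 8.03 and 1.11%, in the same order. Counts under 10 in some libraries limit, among others, Cd8a, Foxp3, Gzmb, Ncr1 and Tbx21, and the called members Cd4, Cd6, Icos, Gzma and Klrk1.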
